A study of Mus musculus with 17 samples.

Results

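Amplification of 0.1 pg of mouse cortex mRNA over 4 rounds was compared with that over 2 rounds on 6 of the 17 Affymetrix arrays of the series. The 3 arrays titled 0.1 pg and 4 rounds (titles ending in 4C1, 4C2 and 4C3, here replicates 1, 2 and 3) were set against the 3 arrays titled 0.1 pg and 2 rounds (2C-1, 2C-2 and 2C-3). All 6 started from cortical mRNA of an adult female C57BL/6 mouse, and the array of 5 µg of unamplified mRNA, called bulk here, served as a reference level. The other arrays hold 10 pg after 2 rounds (1 array) and 10 pg after 4 rounds, 1 pg after 2 rounds and 1 pg after 4 rounds (3 arrays each). The methods call the amplifications independent, but all inputs were diluted from the same cortical mRNA, so the replicates carry the spread of dilution and amplification and none of the variation between animals. The arrays after 4 and after 2 rounds are separate sets. Any other difference between the sets cannot be told apart from that of rounds, and effect of rounds is used below with this limit. The sources do not say whether the last labeling reaction is counted in the 2 and 4 rounds.

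Antisense RNA (aRNA) amplification copies mRNA from its poly-A tail with an oligo-dT primer that carries a T7 promoter, and T7 RNA polymerase then transcribes the cDNA many times over. A further round starts from the antisense RNA, usually with random primers, and tends to shorten the product toward the 3' end of the transcript. At inputs of the order of a single cell a rare transcript may be missing from one dilution and present in another.

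The authors deposited log2 values. Each array was centered on its median and scaled by the span between its 10th and 90th percentiles, and a level below is in log2 above or below the array median. A change is the mean level of the 3 arrays after 4 rounds minus that of the 3 arrays after 2 rounds. A probe set was called changed at an adjusted p under 0.05 in limma, fitted over all 17 arrays in 7 groups, and a gene is represented by its probe set with the highest mean. Background was not measured, and fold sizes are least sure for levels under 0.

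In bulk the marker lists of neurons and astrocytes had medians above the array median, while some other cortex lists lay near it. The 15 astrocyte markers had a median level of 3.21, the 23 pan-neuronal genes 2.97 and the 15 excitatory neuron markers 2.36. The medians of the inhibitory neuron and microglia markers were 1.66 and 1.18, and those of the oligodendrocyte and vascular lists 0.51 and 0.34. Among genes that cortex is not known for, the 31 vomeronasal receptors had a median of -1.14 and the 23 testis-restricted genes -0.95. The Hox genes and the olfactory receptors were at 0.08 and 0.09, not far below the vascular list. The pan-neuronal median was 2.31, 0.83 and 2.02 on the 3 arrays after 4 rounds and 0.81, 0.56 and -0.14 on those after 2 rounds, and the vomeronasal median was -0.50, -0.37 and -0.50 against 0.00, -0.22 and 0.00. The pan-neuronal median thus lay above that of the vomeronasal receptors on all 6 arrays except replicate 3 after 2 rounds. The astrocyte median was 1.88, 1.37 and 1.02 after 4 rounds and 0.00, 0.71 and 1.30 after 2 rounds. The excitatory median was 0.20, -0.11 and 0.81 against 0.30, 0.56 and 0.33. That of the 38 olfactory receptors was 0.50, 0.25 and 0.78 against 0.00, -0.35 and 0.50. The excitatory median was below it on replicates 1 and 2 after 4 rounds and replicate 3 after 2 rounds.

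The arrays after 2 rounds were coarser and less alike. They held 1258, 1577 and 2102 distinct values over the 45037 probe sets, against 4170, 4345 and 3316 after 4 rounds and 3771 in bulk. The mean Pearson's r between replicates was 0.892 after 4 rounds (0.867 to 0.926 over 3 pairs) and 0.721 after 2 rounds (0.703 to 0.732). With bulk the mean r was 0.674 after 4 rounds and 0.596 after 2 rounds. The median SD of a probe set was 0.438 after 4 rounds and 0.844 after 2 rounds, and 74.9% of probe sets had the larger SD after 2 rounds. In the other groups of 3 arrays the median SD was 0.418 to 0.525. Limma gives each probe set 1 spread for all groups. The standard errors and limma p-values below therefore tend to understate the spread of the arrays after 2 rounds.

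The arrays of 0.1 pg after 4 rounds did not resemble most the groups that share their input or their rounds. Their mean r was 0.875 with the arrays of 1 pg after 2 rounds (0.855 to 0.908 over 9 pairs). It was 0.769 with 1 pg after 4 rounds, 0.743 with 0.1 pg after 2 rounds and 0.727 with 10 pg after 4 rounds. The arrays of 0.1 pg after 2 rounds were also closest to 1 pg after 2 rounds, at a mean r of 0.760. These correlations are across probe sets of single arrays and are given as a description, and the source of the resemblance was not tested. The arrays are grouped as labelled, and whether the labels of the arrays of 0.1 pg after 4 rounds and 1 pg after 2 rounds are right was not tested. An error in them would change what each difference between 4 and 2 rounds compares.

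**Figure D1:**
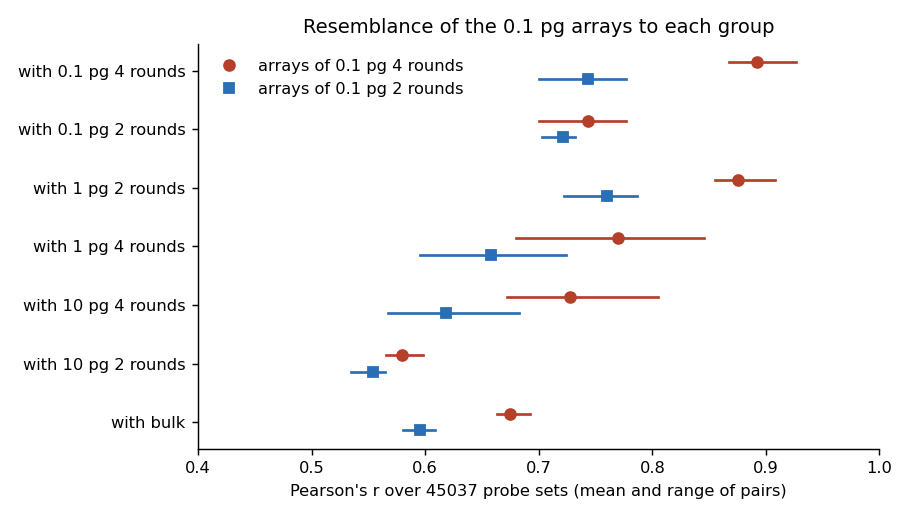
Pearson's r over 45037 probe sets (horizontal axis, starting at 0.4) between the 0.1 pg arrays and each group of arrays. Points are means and lines the range over the pairs of arrays, with circles for the arrays of 0.1 pg after 4 rounds and squares for those after 2 rounds. The circles with 1 pg after 2 rounds lie at 0.855 to 0.908, next to those among the arrays of 0.1 pg after 4 rounds themselves (0.867 to 0.926).

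Between 4 and 2 rounds at 0.1 pg, limma called 1418 of 45037 probe sets changed (3.15%), 635 higher (1.41%) and 783 lower (1.74%) after 4 rounds. At the level of genes, 609 of 18193 changed (3.35%), of which 308 rose (1.69%) and 301 fell (1.65%). The levels after 4 and 2 rounds did not overlap in 606 of the 609, and they did not overlap in 4641 of all genes (25.5%). The median change of all genes was 0.05, that of the genes that rose 2.31 and that of the genes that fell -2.27. The number called varied with how the spread was estimated: with array weights, which down-weight the arrays after 2 rounds, limma called 424 probe sets, and a fit of the 6 arrays alone called 0, with 6827 at an unadjusted p under 0.05. It was 219, 326 and 673 without replicates 1, 2 and 3 after 4 rounds and 3453 without replicate 3 after 2 rounds. A second probe set rarely moved with the first: of the 308 changed genes with over 1 probe set, 18 had another called in the same direction, 8 had one called only in the opposite direction and 282 had none called.

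The largest rise was that of Tubb2b. This gene, a beta-tubulin of neurons, had levels of 6.75, 7.29 and 6.90 after 4 rounds and 1.81, 3.46 and 0.39 after 2 rounds. The groups are far apart, and the spread among the arrays after 2 rounds is several times that after 4 rounds. The change was 5.09 ± 0.59 (standard error; adjusted p 0.0018 in limma), and the bulk level was 1.83.

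Chl1, a neural cell adhesion molecule of the L1 family, was at 4.76, 5.94 and 2.18 after 4 rounds, against 0.30, -1.77 and -0.07 after 2 rounds. Its bulk level of 4.55 lies within the range after 4 rounds and above all arrays after 2 rounds. Mdh1, the cytosolic malate dehydrogenase, was at 7.23, 5.82 and 6.31 after 4 rounds, against 0.81, 3.55 and 1.52 after 2 rounds, with 5.36 in bulk. Uqcrb, a subunit of respiratory complex III, was at 7.28, 5.39 and 4.72 against 1.26, 2.97 and 0.27, with 4.16 in bulk. For both enzymes the arrays after 4 rounds lie above bulk and those after 2 rounds below it. The changes were 4.81 ± 0.86 for Chl1, 4.49 ± 0.62 for Mdh1 and 4.30 ± 0.73 for Uqcrb (standard errors; adjusted p 0.0092, 0.0029 and 0.0072 in limma).

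The remaining genes among the 12 largest rises were Fam160b2 (5.06), Scarb2 (4.95), which encodes a lysosomal membrane protein, Prepl (4.88), a prolyl endopeptidase-like enzyme, Tro (4.52), an adhesion molecule, Trim2 (4.43), a ubiquitin ligase, Chchd1 (4.15), a mitochondrial protein, Serpina11 (4.15), of the serpin family, and Lockd (4.01), a noncoding RNA. Over the 12 the standard errors ran from 0.586 to 1.04 and the adjusted p-values in limma from 0.0018 to 0.046. With array weights limma called 10 of the 12. Of the 12 genes 7 had other probe sets, and none of those was called higher. Without replicate 1 or 2 after 4 rounds Chl1 was no longer called (changes of 4.58 and 3.99), and Tro was not without replicate 2 or 3 (3.90 and 4.26). Lockd lost its call without any 1 of the 6 arrays, with changes of 3.24 to 4.51 and adjusted p-values in limma up to 0.149. The other 9 kept theirs.

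The 12 genes with the largest falls had bulk levels of -2.13 to 1.67 and means of 0.78 to 5.78 after 2 rounds. Eps8, a signaling substrate of the epidermal growth factor receptor that binds actin, had levels of 0.75, -0.04 and 0.84 after 4 rounds and 5.67, 4.83 and 3.95 after 2 rounds. The lowest array after 2 rounds is above the highest after 4 rounds by more than either group's spread, and the bulk level was -0.26. The change was -4.30 ± 0.52 (standard error; adjusted p 0.0018 in limma).

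Smarca5, the ATPase of a chromatin remodeling complex, was at 2.16, 2.08 and 1.84 after 4 rounds, against 6.36, 5.77 and 5.20 after 2 rounds, with 0.92 in bulk. Wbp11, a splicing protein, was at 1.53, 1.13 and 1.11 against 5.88, 5.12 and 4.55, with 1.41 in bulk. Pofut1, which adds fucose to Notch receptors, was at 0.62, 0.32 and 1.59 against 5.39, 4.67 and 4.13, with -0.06 in bulk. In all 3 genes the arrays are tightly grouped and do not overlap, with the highest level after 2 rounds in replicate 1. The changes were -3.75 ± 0.44, -3.93 ± 0.46 and -3.89 ± 0.47 (standard errors; adjusted p 0.0018 for each in limma).

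The other genes among the 12 largest falls were Mtor (-4.24), the kinase that couples nutrients to growth, Cacfd1 (-4.13), Tbc1d8b (-3.98), Fam47c (-3.92), Pcdhb17 (-3.88), a protocadherin, Ttll9 (-3.85), of the tubulin tyrosine ligase-like family, 6030468B19Rik (-3.84) and Ndufa10 (-3.81), a subunit of respiratory complex I. Over the 12 the standard errors ran from 0.438 to 0.910 and the adjusted p-values in limma from 0.0018 to 0.022, and limma called 11 of them with array weights. Mtor lost its call without any 1 array after 4 rounds or replicate 1 after 2 rounds (changes of -4.33 to -3.67), and Cacfd1 lost it without any 1 array after 4 rounds (-4.30 to -3.91). The other 10 kept theirs whichever of the 6 arrays was left out. Ttll9 had another probe set called lower, and Ndufa10 had another called higher.

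**Figure D2:**
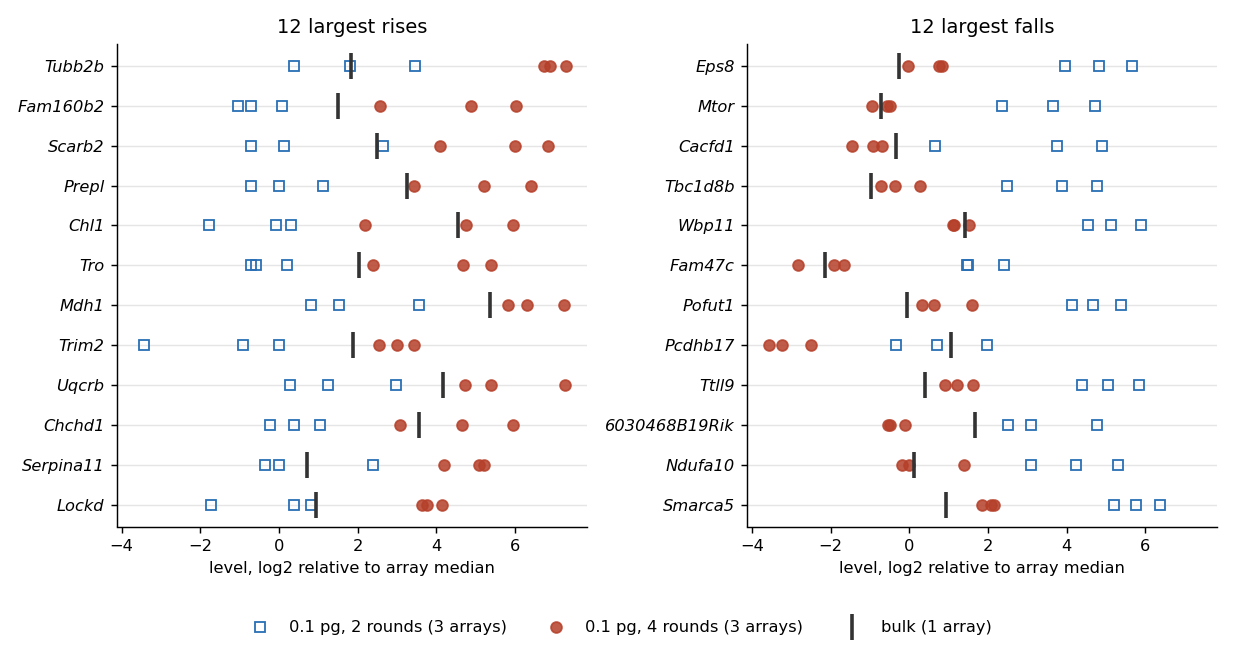
Level of the 12 genes with the largest rise (left) and the 12 with the largest fall (right) on each array, in log2 relative to the array median. Filled circles are the 3 arrays of 0.1 pg after 4 rounds, open squares the 3 arrays after 2 rounds and vertical bars the bulk array. For Eps8 the circles lie at -0.04 to 0.84, beside the bulk level of -0.26, and the squares at 3.95 to 5.67, while for Tubb2b the bulk level of 1.83 lies among the squares.

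The changed genes were set against the bulk level as a description. Of the 301 genes that fell, 232 (77.1%) were closer to bulk after 4 rounds than after 2 rounds, against 154 of the 308 that rose (50.0%) and 55.0% of all genes. The median level of the genes that fell was 2.32 after 2 rounds and -0.24 after 4 rounds, with 0.18 in bulk. The median level of the genes that rose was -0.21 after 2 rounds and 2.25 after 4 rounds, with 0.91 in bulk, so that it lay below bulk before and above bulk after. Bulk is 1 array with no replicate, and the distances carry its own error. The genes that rose and fell were also chosen by the levels compared here. Their distance to bulk is thus partly set by that choice, and the shares describe the classes and test nothing. Among the 4600 genes with the lowest bulk levels 32 rose (0.696%) and 97 fell (2.11%), and among the 4545 with the highest 98 rose (2.16%) and 60 fell (1.32%), beside 1.69% and 1.65% of all genes. Among the top 5% of genes by bulk level 7 of 910 rose (0.769%) and 9 fell (0.989%).

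After 4 rounds 297 changed genes were within a log2 of 1 of bulk, 192 of them genes that fell, and after 2 rounds 177 were, 114 of them genes that rose. Among those near bulk after 4 rounds, the farthest from it after 2 rounds were Eps8, Chl1, Pofut1, Ttll9 and Norad, a noncoding RNA that binds Pumilio proteins. Norad was at 6.98, 3.40 and 2.11 after 4 rounds, against 1.04, 0.00 and -0.07 after 2 rounds, with 5.06 in bulk. Replicate 1 after 4 rounds stands apart, and without it the change was 2.43 in place of 3.84 and not called (adjusted p 0.111 in limma). It was also not called without replicate 2 after 4 rounds (4.22) or replicate 2 after 2 rounds (3.68).

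In the opposite direction, the genes near bulk after 2 rounds and farthest from it after 4 rounds were Tubb2b, Pcdhb17, Serpina11, Serpinf1, which encodes a secreted serpin known as pigment epithelium-derived factor, and F11r, a junctional adhesion molecule. Serpinf1 was at 4.41, 4.15 and 3.34 after 4 rounds, against 0.30, 0.00 and 0.87 after 2 rounds, with -0.57 in bulk. F11r was at 6.18, 5.53 and 3.59 against 2.12, 1.12 and 1.60, with 0.92 in bulk. Both stand more than 2 log2 above bulk on all arrays after 4 rounds. Pcdhb17 was at -3.22, -2.50 and -3.57 after 4 rounds, against -0.35, 0.71 and 1.98 after 2 rounds, with 1.05 in bulk, and it is the gene of the 5 that fell.

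Hybridization controls, bacterial and phage transcripts that are labeled beforehand and added to the hybridization mix, were brighter on the arrays after 2 rounds. The mean of their 18 probe sets was 6.04, 5.62 and 5.96 after 4 rounds and 8.52, 8.26 and 7.68 after 2 rounds, with 5.42 in bulk. All 18 were higher on every array after 2 rounds than on any after 4 rounds, and the difference of -2.28 gave p = 0.1 in an exact two-sided permutation test, the smallest that 3 against 3 arrays allow. In 9 of the 12 largest falls (75.0%) the arrays after 2 rounds stood in the same order as their controls, replicate 1 above 2 above 3. This order was found in 133 of the 301 genes that fell (44.2%), in 20 of the 308 that rose (6.49%) and in 20.1% of all genes. The reverse order was found in 25 of the genes that fell (8.31%), in 85 of those that rose (27.6%) and in 16.3% of all genes. The part of the controls in the falls was not tested.

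**Figure D3:**
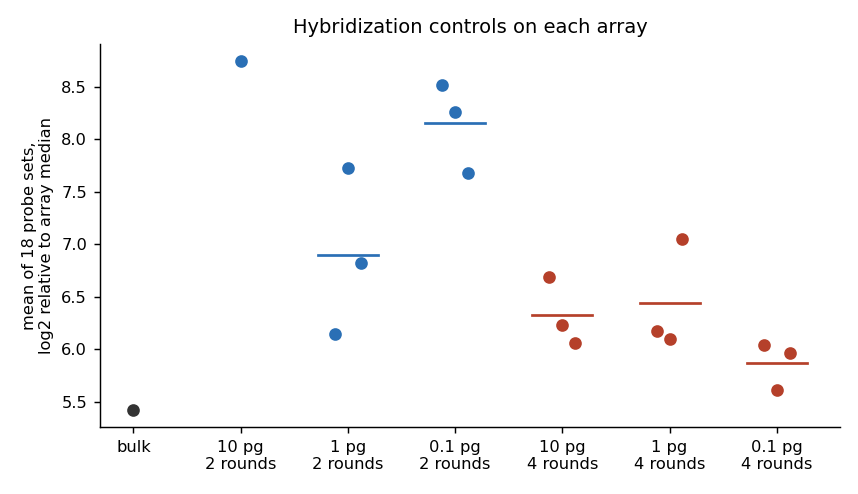
Mean level of the 18 hybridization control probe sets on each of the 17 arrays, in log2 relative to the array median (the axis does not start at 0). Each point is an array and each line the mean of a group of 3. The arrays of 0.1 pg after 2 rounds lie at 7.68 to 8.52, above those of 0.1 pg after 4 rounds at 5.62 to 6.04 and above bulk at 5.42.

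The array carries separate probe sets for the 3' and the 5' end of some transcripts. The 3' minus 5' difference of the transferrin receptor was 7.47, 5.97 and 6.43 after 4 rounds and 2.42, 5.62 and 5.17 after 2 rounds, with 5.37 in bulk. The arrays do not overlap, and the difference of 2.22 reached the smallest p the design allows (0.1, exact two-sided permutation). Without replicate 1 after 2 rounds the difference was 1.23. That of Gapdh, the glycolytic enzyme, was 3.68, 3.72 and 3.73 against 2.81, 4.32 and 3.22, with 2.05 in bulk. That of b-actin was -0.73, -0.71 and -0.99 against -1.60, -3.34 and 0.29, and that of pyruvate carboxylase -1.12, 0.11 and 0.21 against 0.17, -1.05 and 0.26. In these 3 transcripts the arrays overlap, with exact permutation p-values of 0.7, 0.7 and 0.6. For the transferrin receptor the 3' probe set alone overlapped between the groups (difference 0.81, exact permutation p 0.3). Its 5' probe set was at -1.85, -2.34 and -1.56 after 4 rounds, against 1.04, -1.05 and -1.53 after 2 rounds, so that it lay below the array median on 5 of the 6 arrays and was not shown to be above background.

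The effect of rounds at 1 pg, the comparison most like that at 0.1 pg, shares no array with it. At 1 pg limma called 753 genes (4.14%), 352 higher (1.93%) and 401 lower (2.2%). Both comparisons called 82 genes, which is 13.5% of the genes called at 0.1 pg and 10.9% of those called at 1 pg. Of the 82, 28 rose in both and 10 fell in both, 43 rose at 0.1 pg and fell at 1 pg, and 1 did the reverse. Across the 18193 genes, which are not independent, the changes at the 2 inputs had a Pearson's r of -0.007. Of the 12 largest rises 7 were called at 1 pg, 6 in the same direction, with 4.78 for Tubb2b, 4.70 for Fam160b2 and 4.30 for Scarb2. Of the 12 largest falls 3 were called at 1 pg, and all 3 fell there too: Tbc1d8b (-2.34), Wbp11 (-2.23) and Smarca5 (-1.83).

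The test of the difference, the change at 0.1 pg minus the change at 1 pg, called 727 genes (4.0%) in limma, 551 positive (3.03%) and 176 negative (0.967%). Over all probe sets it called 1619 (3.59%), 1107 positive (2.46%) and 512 negative (1.14%). They include 212 of the 609 genes changed at 0.1 pg (34.8%). The 551 positive genes had a median level of 2.95 at 0.1 pg after 4 rounds and 2.81 at 1 pg after 2 rounds, against 0.97 at 0.1 pg after 2 rounds, 0.72 at 1 pg after 4 rounds and 0.42 in bulk. In these levels 0.1 pg after 4 rounds stood with 1 pg after 2 rounds, a pairing that the form of the difference sets. The 176 negative genes had medians of -0.62 and -0.50 in this pair of groups, against 0.90 and 1.06 in the other pair and 0.94 in bulk. The correlations did not join that other pair. The mean r of 0.1 pg after 2 rounds was 0.658 with 1 pg after 4 rounds and 0.760 with 1 pg after 2 rounds. Genes were placed in these classes by the same levels, so the medians describe the classes and test nothing.

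The largest positive differences were those of Carnmt1 (8.18), Lsamp (7.43), Pex6 (7.19), Def6 (7.17) and Ccn3 (6.88). Lsamp, an adhesion molecule of limbic neurons, was at 7.97, 7.49 and 6.79 after 4 rounds, against 3.76, 4.23 and 4.95 after 2 rounds at 0.1 pg, with 3.71 in bulk. At 1 pg its mean went the other way, from 6.91 ± 0.62 after 2 rounds to 2.59 ± 0.74 after 4 rounds (SD, n = 3). Ccn3, a secreted matricellular protein, was at 3.61, 3.52 and 3.57 against -0.35, 0.39 and 0.66 at 0.1 pg, and its mean at 1 pg was 3.25 ± 0.72 after 2 rounds and -0.29 ± 1.48 after 4 rounds (SD, n = 3). The arrays of both genes are close together within groups at 0.1 pg and do not overlap between them. Carnmt1 and Pex6 overlapped between 4 and 2 rounds at 0.1 pg and were not called there by the probe set given (adjusted p 0.127 and 0.087 in limma). Of the 4 other probe sets of Pex6, 1 was called higher and 1 lower after 4 rounds at 0.1 pg.

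The largest negative differences were those of Mtpn (-5.13), Nipsnap2 (-5.12), Gsk3b (-5.04), Mmd (-4.97) and 4921513H07Rik (-4.97). None of the 5 had changed at 0.1 pg by itself, as measured by the probe set that represents the gene (adjusted p 0.097 to 0.709 in limma). Gsk3b, a kinase of the Wnt and insulin pathways, was at 1.91, -0.12 and 0.26 after 4 rounds, against 2.89, 2.87 and 0.33 after 2 rounds at 0.1 pg, with 5.97 in bulk. At 1 pg its mean was 5.84 ± 0.32 after 4 rounds and 2.15 ± 0.74 after 2 rounds (SD, n = 3). By this probe set its bulk level was thus reached at 1 pg after 4 rounds and on none of the arrays of 0.1 pg. Of the 5 other probe sets of Gsk3b, 1 was called higher after 4 rounds at 0.1 pg.

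**Figure D4:**
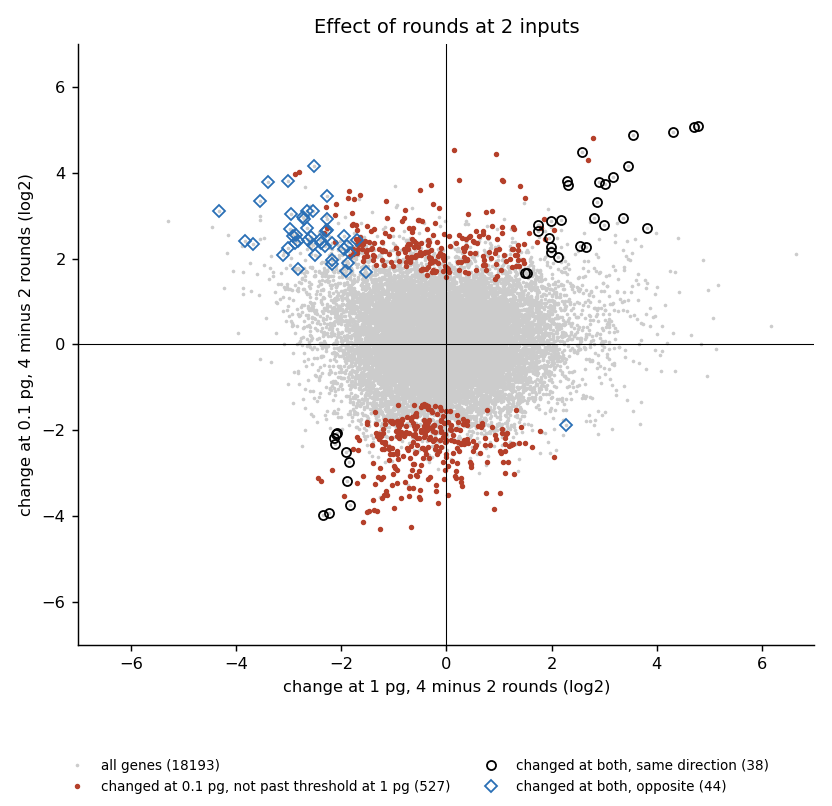
Change between 4 and 2 rounds at 0.1 pg (vertical) against that at 1 pg (horizontal) for 18193 genes, in log2. Gray points are all genes, filled points genes changed at 0.1 pg and not past the threshold at 1 pg (527), circles genes changed in the same direction at both inputs (38) and diamonds genes changed in opposite directions (44). The diamonds lie at the upper left, higher at 0.1 pg and lower at 1 pg, apart from 1 gene at the lower right.

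Over 40 lists of cell type markers and gene families with 1149 members, 43 members changed (3.74%), 25 higher and 18 lower, which is near the 3.35% of all genes. In 16 lists no member passed the limma test. List medians ran from -0.21 in histones to 1.68 in the 14-3-3 proteins, against 0.05 over all genes, and the latter was 0.14 where each gene was given by the median over its probe sets. Medians of most lists were close to 0 and had no settled direction: in 22 of the 40 lists, all with medians of 0.38 or less in size, the sign turned in at least 1 of 9 other settings, among them inhibitory neuron markers (0.28 with medians over probe sets) and histones (0.03 without replicate 3 after 2 rounds). Of the 43 changed members, 14 kept their call whichever of the 6 arrays was left out, and 22 were called with array weights. The other 29 lost the call without at least 1 array after 4 rounds. The members called over all lists fell to 16, 19 and 22 without replicates 1, 2 and 3 after 4 rounds and rose to 90 without replicate 3 after 2 rounds.

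Genes of the nerve terminal that rose were Snap25 and Vamp2, SNARE proteins that drive fusion of synaptic vesicles. Snap25 was at 2.82, 2.10 and 4.03 after 4 rounds, against -1.64, -1.05 and 0.27 after 2 rounds, with 4.26 in bulk. Vamp2 was at 3.58, 2.68 and 2.16 against -0.35, -1.05 and -0.39, with 4.15 in bulk. Both were near or below the array median after 2 rounds and above it on every array after 4 rounds, below bulk. The changes were 3.79 ± 0.55 and 3.40 ± 0.54 (standard errors; adjusted p 0.0033 and 0.0050 in limma). They were the 2 of the 25 measured synaptic vesicle and fusion genes that changed, and the median of that list was 0.34. At 1 pg Snap25 rose by 2.90 (adjusted p 0.014 in limma), and Vamp2 had a change of -1.77 that was not called (adjusted p 0.076), with a called difference between the inputs of 5.16 (adjusted p 0.0048).

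Markers of single cell types mostly did not pass the test, which 3.35% of all genes passed. Of the 23 pan-neuronal genes Snap25 alone changed, the list median was 0.71 (0.34 without replicate 1 after 4 rounds) and 17 of the 23 changes were above 0. The next largest rise of this list was that of Vsnl1, a neuronal calcium sensor, with 2.38 (adjusted p 0.091 in limma), which was called without replicate 2 after 4 rounds (3.40) or replicate 2 after 2 rounds (3.17). None of the 15 excitatory and 14 inhibitory neuron markers passed the test (medians -0.18 and -0.11). Camk2a, a kinase of excitatory synapses, was at 2.10, 2.44 and 2.66 after 4 rounds, against 0.00, 2.21 and 1.34 after 2 rounds, with 4.90 in bulk, and the groups overlap (adjusted p 0.273 in limma). Reln, an extracellular matrix protein of interneurons, had a change of -1.45 (adjusted p 0.094 in limma).

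None of the 15 astrocyte markers passed the test (median 0.30). Slc1a2, the main glial glutamate transporter, was at 2.45, 1.05 and 1.69 after 4 rounds, against -0.72, -1.05 and -0.39 after 2 rounds, with 4.13 in bulk. Its arrays do not overlap, but the change of 2.45 ± 0.91 (standard error) did not pass the threshold (adjusted p 0.134 in limma). Slc1a3, the second glial glutamate transporter, had a change of 2.06 and Gja1, a gap junction protein, one of -1.33 (adjusted p 0.133 and 0.212 in limma). Among 15 oligodendrocyte genes Ermn, a myelin cytoskeleton protein, rose by 1.92 (median 0.34), but lost its call without any 1 array after 4 rounds or replicate 2 after 2 rounds (1.63 to 2.11). Mbp, the myelin basic protein, was at 3.89, 4.14 and 4.27 against 4.13, 0.99 and 4.13, so that replicate 2 after 2 rounds alone set its change of 1.02 (-0.028 without it). Cspg4, the NG2 proteoglycan, had a change of -1.52 (adjusted p 0.086 in limma) that was called without replicate 3 after 2 rounds (-1.94). None of the 13 microglia markers changed (median 0.16), and the extremes were Trem2 with 1.81 (called without replicate 3 after 2 rounds, 2.19) and Ctss with -1.68.

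Of the 14 vascular markers 6 had a change above 0, and the median was -0.18. Pdgfrb and Rgs5, which are found in pericytes, rose, and no other member of the list passed the test. Rgs5, a regulator of G protein signaling, was at 3.40, 3.38 and 3.39 after 4 rounds, against 0.57, -0.22 and 0.96 after 2 rounds, with 4.41 in bulk. Pdgfrb, a growth factor receptor, was at 5.72, 5.45 and 6.21 against 3.28, 1.58 and 3.59, with 2.33 in bulk. The arrays of both genes are well apart, and Rgs5 moved toward bulk, while Pdgfrb, above bulk on 2 of the 3 arrays after 2 rounds, moved further from it. The changes were 2.96 ± 0.45 and 2.98 ± 0.55 (standard errors; adjusted p 0.0040 and 0.011 in limma), and Pdgfrb was not called without replicate 1 after 4 rounds (3.01, adjusted p 0.051). Among 6 blood markers and 8 choroid plexus and ependyma markers none changed (medians 0.02 and 0.31). Their extremes were Alas2 with 1.80 (called without replicate 3 after 2 rounds, 2.33), Hba-a1 with -1.19, Folr1 with 1.36 and Aqp1 with -1.29.

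Rgs5 was also the 1 member of the 20 dendritically localized mRNAs that changed (median 0.14). Homer1, a scaffold protein of the postsynaptic density, was at 5.15, 4.72 and 5.41 after 4 rounds, against 1.04, -0.22 and 4.80 after 2 rounds. Replicate 3 after 2 rounds lies within the range after 4 rounds, and the change of 3.22 was not called with it (adjusted p 0.159 in limma) and was without it (4.69, adjusted p 0.033). None of the 18 immediate early genes, which neurons transcribe within minutes of activity, passed the test (median -0.12). Egr1, a transcription factor among them, was at 1.11, 0.58 and 0.33 against 2.77, 3.81 and 3.06, with 3.75 in bulk (change -2.54, adjusted p 0.057 in limma). Junb and Arc had changes of -2.17 and -1.22 (adjusted p 0.097 and 0.105 in limma), and Junb was called without replicate 2 after 2 rounds (-3.16).

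Of the 14-3-3 proteins, phosphoserine-binding adaptors, 2 of 6 rose, and 5 of 6 changes were above 0. Ywhab was at 4.62, 4.72 and 3.60 after 4 rounds, against -1.15, 1.78 and 0.87 after 2 rounds, with 4.39 in bulk. Ywhaz was at 5.42, 6.12 and 6.47 against 3.69, 3.77 and 4.76, with 6.77 in bulk. Both were closer to bulk on every array after 4 rounds. The changes were 3.81 ± 0.60 and 1.93 ± 0.41 (standard errors; adjusted p 0.0044 and 0.022 in limma), and Ywhaz lost its call without replicate 2 or 3 after 4 rounds (1.87 and 1.70). Ywhab rose at 1 pg too, by 2.29 (adjusted p 0.045 in limma), and Ywhae had a change of 2.03 at 0.1 pg that was not called (adjusted p 0.083 in limma).

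Among 16 tubulins (median 0.10) Tubb2b, Tuba1a (2.68) and Tube1 (2.28) rose. Tuba1a, the main alpha-tubulin of neurons, was at 5.61, 5.65 and 4.93 after 4 rounds, against 3.10, 3.58 and 1.49 after 2 rounds, with 4.65 in bulk. Tuba1a lost its call without any 1 array after 4 rounds or replicates 1 or 3 after 2 rounds (2.06 to 2.91), and Tube1 without any 1 array after 4 rounds or replicates 1 or 2 after 2 rounds (1.81 to 2.60). Among 37 kinesins, motors that carry cargo along microtubules (median 0.15), Kif5c fell by 3.06 and Kif18b rose by 2.71. Kif5c was at 1.11, 0.86 and 0.24 after 4 rounds, against 4.89, 4.14 and 2.37 after 2 rounds, with 0.44 in bulk. Kif18b was not called without replicate 1 or 2 after 4 rounds (2.62 and 2.47). None of the 24 microtubule and growth cone proteins passed the test (median 0.53), and the largest rise was that of Basp1 with 2.20 (adjusted p 0.052 in limma), which was called without replicate 3 after 2 rounds (2.72).

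RNA-binding proteins of dendritic mRNA transport held 2 genes that fell among 23 (median 0.14). Purb, a purine-rich element binding protein, was at 1.03, 1.52 and 1.21 after 4 rounds, against 5.19, 4.12 and 3.50 after 2 rounds, with 4.45 in bulk. Pum2, a Pumilio repressor of translation, was at 1.70, 0.61 and 1.31 against 5.19, 4.65 and 3.67, with 2.75 in bulk. For Purb the bulk level lies among the arrays after 2 rounds, and for Pum2 between the groups. The changes were -3.02 ± 0.46 and -3.29 ± 0.54 (standard errors; adjusted p 0.0041 and 0.0060 in limma), and both kept their calls without any 1 array.

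Genes of translation moved in both directions. Eif2b1, a subunit of the exchange factor of eIF2, was at 1.07, 0.95 and 0.51 after 4 rounds, against 5.44, 4.58 and 3.25 after 2 rounds, with 0.46 in bulk. Mrpl39, of the large mitochondrial ribosomal subunit, was at 0.97, 0.80 and 0.49 against 4.73, 4.37 and 2.42, with 0.39 in bulk. Rps26, of the small cytosolic subunit, was at 0.29, -0.24 and 0.77 against 3.47, 3.07 and 2.50, with 1.62 in bulk. All 3 are lower on every array after 4 rounds, and in each the arrays after 2 rounds are in the order of their hybridization controls. The changes were -3.58 ± 0.55, -3.08 ± 0.50 and -2.74 ± 0.43 (standard errors; adjusted p 0.0040, 0.0055 and 0.0044 in limma). In the other direction Rpl41 rose by 2.68 and Mrpl50 by 2.60, while Mrpl33 (-2.55) and Eif3i (-2.12) fell. Rpl41, Mrpl50 and Eif3i lost their calls without any 1 array after 4 rounds (changes of 2.27 to 3.0, 2.46 to 2.76 and -2.26 to -1.93) or replicate 2 after 2 rounds (2.67, 1.99 and -1.97), Rpl41 also without replicate 3 after 2 rounds (2.31), and Mrpl33 without replicate 1 or 2 after 4 rounds (-2.44 and -2.26). In all, 2 of 45 cytosolic and 3 of 76 mitochondrial ribosomal proteins and 2 of 58 translation factors changed, with medians of 0.15, 0.13 and -0.06.

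The respiratory chain and ATP synthase held 3 genes that rose and 1 that fell among 83 (median 0.00). Atp5g3, which encodes the ring subunit of ATP synthase, was at 4.97, 5.12 and 4.19 after 4 rounds, against 1.46, 2.29 and -0.68 after 2 rounds, with 4.76 in bulk. Its arrays after 4 rounds lie around the bulk level, and the change was 3.74 ± 0.61 (standard error; adjusted p 0.0055 in limma). Atp5g3 rose at 1 pg as well, by 3.02 (adjusted p 0.018 in limma). Cox7a2l, which helps respiratory complexes join, rose by 3.81 and lost its call without replicate 1 or 2 after 4 rounds (3.57 and 3.07). Uqcrb and Ndufa10, described above, are the other 2.

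Among ion channels and receptors, 5% of the potassium channel genes and 12.5% of the GABA receptor subunits passed the test, beside 3.35% of all genes. None passed in the other lists of this kind. Of 80 potassium channel genes (median -0.01) Kcnn1 (-2.31), Kcne2 (-1.99), Kcnmb2 (-1.53) and Kcnn2 (-1.43) fell, and none kept its call without replicate 1 or without replicate 2 after 4 rounds (-1.30 to -2.29 over these). All but Kcnn1 also lost it without replicate 3 after 4 rounds and at least 1 array after 2 rounds. Kcnn1 and Kcnn2 are calcium-activated channels. Among 16 GABA receptor subunits (median 0.53) Gabrq rose by 2.57 and Gabrp by 1.73, both without a call when replicate 1 after 4 rounds was left out (2.49 and 1.86), and Gabrp also without replicate 2 or 3 after 4 rounds or replicate 2 after 2 rounds (1.81, 1.53 and 1.45). None of the 22 glutamate receptor subunits changed (median 0.10). The largest rise among them was that of Grik1, whose levels of 6.74, 2.93 and -1.56 after 4 rounds are spread over a wider range than its change of 2.63. None of the 35 voltage-gated sodium and calcium channel genes passed the test (median 0.28), with 2.62 for Scn9a and -1.63 for Cacna2d1 at the extremes (adjusted p 0.063 and 0.101 in limma), and Scn9a was called without replicate 2 after 2 rounds (3.13).

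**Figure D5:**
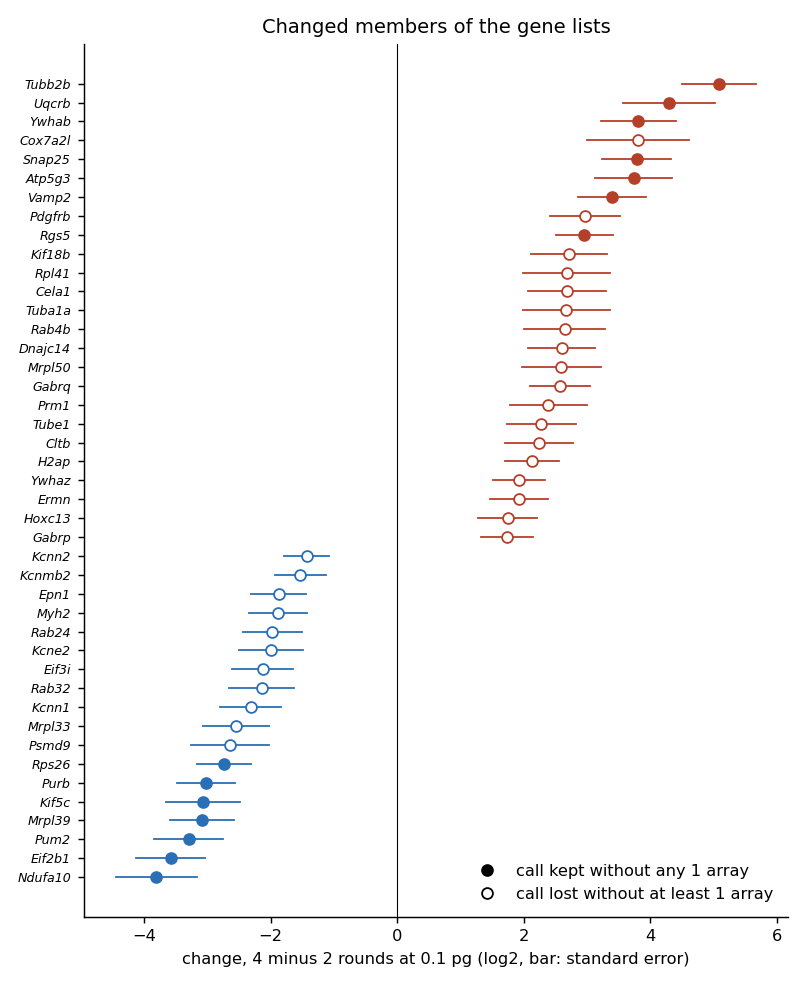
Change between 4 and 2 rounds at 0.1 pg for the 43 changed members of the gene lists, in log2, with bars of 1 standard error. Filled points are the 14 genes that kept their call when any 1 of the 6 arrays was left out, and open points the 29 that lost it without at least 1. The filled points lie at the ends, at 2.96 (Rgs5) and above or at -2.74 (Rps26) and below, with open points for Cox7a2l and Pdgfrb among them.

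The other lists held few changed members, where 3.35% of all genes changed. In trafficking, 3 of 59 RAB genes (Rab4b 2.65, Rab32 -2.14, Rab24 -1.97) and 2 of 18 endocytosis genes (Cltb 2.24, Epn1 -1.87) changed, with medians of 0.13 and 0.31. In protein turnover, 1 of 39 proteasome subunits (Psmd9, -2.64) and 1 of 67 chaperones (Dnajc14, 2.60) changed, with medians of 0.15 and 0.30, and none of 43 ubiquitin-conjugating and cullin genes did (median 0.63). No member passed the test among 49 splicing factors (median 0.40), 14 glycolysis enzymes (0.38) and 13 calmodulin genes and kinases (0.98). With medians over the probe sets of a gene these were 0.07 for the splicing factors and 0.32 for the calmodulin genes, and the ubiquitin list was at 0.14. The calmodulin median was 0.62 without replicate 1 and 0.51 without replicate 2 after 2 rounds, and the glycolysis median was 0.15 without replicate 3 and -0.03 without replicate 1 after 4 rounds. Of 25 histones 1 changed (H2ap, 2.13). Among genes that cortex is not known for, 1 of 33 Hox genes (Hoxc13, 1.75), 1 of 23 testis-restricted genes (Prm1, 2.39) and 2 of 17 genes of liver, muscle and pancreas (Cela1 2.68, Myh2 -1.88) changed, and none of 38 olfactory and 31 vomeronasal receptors did (medians 0.34 and -0.16). All 12 of the changed genes named here lost their calls without at least 1 array after 4 rounds, and all but Dnajc14 and H2ap also without at least 1 after 2 rounds. Without the arrays that ended their calls the changes were 1.36 (Hoxc13) to 2.92 (Rab4b) for the 7 that rose and -2.78 (Psmd9) to -1.61 (Myh2) for the 5 that fell. Of 12 housekeeping genes Ywhaz alone changed (median 0.28).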

How the data were processed

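RNA was hybridized to Affymetrix mouse arrays, and the 17 columns of the deposited table were matched to arrays by their labels (0 other columns). The authors deposited log2 values, summarized per probe set with RMA 2.0, for which their methods name the upper decile statistic. The deposited values run from 1.56 to 15.8. Centering on the median and scaling by the span between the 10th and 90th percentiles, which the methods describe, are not in them (array medians 5.64 to 6.01, spans 4.22 to 4.97). Both steps were applied to each array, and values were multiplied by the mean span of 4.63. Array data carry no read depth, and precision is limited by how many arrays there are.

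After 64 controls were set aside from the 45101 probe sets, 45037 remained. Of these, 34945 have 1 gene symbol in the platform annotation, 932 several and 9160 none, which gives 18193 genes, each by its probe set with the highest mean. The test was limma 3.58.1 (R 4.3.3; 7 group means over 17 arrays, contrasts, eBayes, 16.4 total degrees of freedom) with Benjamini-Hochberg adjustment over all probe sets and a threshold of 0.05. Bulk and 10 pg after 2 rounds are 1 array each and add no spread. Control transcripts were compared by exact permutation with scipy 1.17.1 in python 3.11.15. Genes were named by rule: the 12 largest rises and falls among changed genes with no overlap between groups, the 5 nearest bulk after 4 and after 2 rounds and farthest after the other, the 5 largest differences from 1 pg in each direction, and the 2 highest and 2 lowest members of each list. From the last set those of the lists described are given, and every changed member was named, which was decided after their values were seen. The genes, lists and tests were chosen with earlier results of these data known. The limma step was tested on simulated data with the same spread in both groups, unlike these arrays. It called 18 of 100 probe sets given a log2 change of 2 and 92 of 100 given 4, with 7 false calls. A change near 2 without a call is therefore not shown to be absent. No 2 of the 6 arrays shared more than 0.253% identical values. Alternatives were other normalizations, a filter on low probe sets, values per gene, array weights, a block for the replicate number, a fit of the compared groups only, the methods' t-test and false discovery rate, and each array left out.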

Additional observations from a re-analysis of the deposited data

Results flagged for a closer look

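At 1619 probe sets the effect of rounds differed between 0.1 and 1 pg in limma (1107 positive and 512 negative), and the difference was past the threshold for 33 of the genes described, given here as the change at 0.1 pg minus the change at 1 pg. Among the genes with the largest changes it was 6.82 for Lockd, 6.67 for Serpina11, -3.05 for Eps8 and -4.74 for 6030468B19Rik, and among those near bulk after 2 rounds 5.43 for Serpinf1 and 5.14 for F11r. The largest positive differences were 8.18 for Carnmt1, 7.43 for Lsamp, 7.19 for Pex6, 7.17 for Def6 and 6.88 for Ccn3, and the largest negative ones -5.13 for Mtpn, -5.12 for Nipsnap2, -5.04 for Gsk3b, -4.97 for Mmd and -4.97 for 4921513H07Rik.

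Among markers and synaptic genes the difference was 5.71 for Pdgfrb, 4.09 for Rgs5, 5.16 for Vamp2, 3.43 for Trem2, -4.33 for Egr1 and -2.91 for Arc. Among channels and receptors it was 2.62 for Gabrq, -3.43 for Kcnn1 and 4.91 for Scn9a. Among trafficking and cytoskeletal genes it was 4.08 for Rab4b, 3.43 for Kif18b and 2.89 for Tube1. Among genes of RNA binding and translation it was -4.29 for Purb, -3.58 for Pum2, -3.81 for Rps26 and 4.92 for Mrpl50, and for the pancreatic elastase gene Cela1 it was 4.06. Of these genes Trem2, Egr1, Arc, Scn9a, Carnmt1, Pex6 and the 5 with the largest negative differences had not changed at 0.1 pg alone by the probe set that represents each. Pex6 and Gsk3b had other probe sets called there, as given above. No cause of the differences was tested.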

How the results depend on the processing

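The number of changed probe sets at 0.1 pg (1418) was between 1141 and 1532 with quantile normalization, centering without scaling, the values as deposited or no probe sets below the median. It was 724 with 1 probe set per gene, 541 with the median of the probe sets of a gene, 424 with array weights and 1 at the study's false discovery rate of 0.1%. A fit of the compared groups alone called 0 in limma (6827 at an unadjusted p under 0.05), and so did the methods' t-test at 0.05 (0, with 6298 unadjusted) and at 0.1% (0). With each array left out it ran from 219 (without replicate 1 after 4 rounds) to 3453 (without replicate 3 after 2 rounds). The probe sets with a different effect of rounds at 0.1 and 1 pg (1619) numbered 851 with 1 probe set per gene, 623 with medians over the probe sets of a gene, 2720 with array weights, 880 with the compared groups alone and 0 at 0.1% (9425 unadjusted). With each array left out they ran from 341 to 3331. The lowest values came without replicates 1 (341) and 2 (472) of 0.1 pg after 4 rounds, replicates 1 (499), 2 (1076) and 3 (588) of 1 pg after 2 rounds and replicates 1 (531) and 3 (789) of 1 pg after 4 rounds, and the highest without replicate 3 of 0.1 pg after 2 rounds (3331) and replicate 2 of 1 pg after 4 rounds (2647).

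The replicate number as a block, with the compared groups alone, left 10 changed probe sets and 506 different effects of rounds. The deviations of same-numbered replicates had r of -0.005, -0.066 and -0.118, and those of the other pairs ran from -0.050 to 0.115. The labels give no day or batch, and whether replicates of the same number share one was not tested. Of the 24 genes with the largest changes, 0 reversed direction under the 11 settings run for single genes, which do not include centering without scaling, the filter on low probe sets, medians over probe sets and the methods' t-test. These genes were chosen with no overlap between the groups. Leaving out an array, array weights, the block or the compared groups alone could therefore not turn their sign. Only the deposited values and quantile normalization could. The calls kept were 23 with the deposited values and with quantile normalization, 21 with array weights, 3 with the block, 0 with the compared groups alone and 19 to 23 with each array left out. Of the 10 genes with the largest differences between inputs, Nipsnap2, Mmd and 4921513H07Rik lost the call without at least 1 of the 12 arrays, and Mmd also with the compared groups alone or the block (adjusted p 0.056 and 0.065 in limma).

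Spearman's rho between replicates was 0.832 after 4 rounds and 0.545 after 2 rounds, and r above the median was 0.751 after 2 rounds. Changed list members ran from 16 to 90 with each array left out. The difference in the 3' minus 5' measure ran from -0.15 to 1.66 for b-actin (-0.15 without replicate 2 after 2 rounds), from -0.063 to 0.69 for Gapdh (-0.063 without replicate 1 after 2 rounds), from 1.23 (without replicate 1 after 2 rounds) to 2.83 for the transferrin receptor, and from -0.48 to 0.37 for pyruvate carboxylase, which turned positive without replicate 1 after 4 rounds (0.37) and without replicates 1 (0.13) or 3 (0.17) after 2 rounds. The change of Mbp ran from -0.028 without replicate 2 after 2 rounds to 1.54 without replicate 1 after 2 rounds. The arrays after 2 rounds had the larger spread, and with 3 arrays a group that spread is itself poorly known.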

Other observations

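The poly-A controls, bacterial transcripts with a poly-A tail, had a mean over 27 probe sets of -0.54, -0.35 and -0.41 after 4 rounds and of 0.30, 0.12 and 0.33 after 2 rounds, with -1.02 in bulk. The mean of the 3 probe sets for 18S ribosomal RNA was 1.85, 1.56 and 4.87 after 4 rounds and 1.29, 1.11 and 2.37 after 2 rounds, with 5.40 in bulk, so that replicate 3 stood highest in both groups.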
